A study of Mus musculus with 19 samples.

Results

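The cells described here are thymocytes that carried RNA of *Bcl2l11*, which encodes the pro-death protein BIM, together with RNA of a gene induced by T cell receptor (TCR) signaling. A cell was included when at most 15% of its unique molecular identifiers (UMIs, counts of captured RNA molecules) were mitochondrial, at least 200 genes were detected, at least 2 UMIs came from *Bcl2l11* and at least 1 came from *Pdcd1* (PD-1) or *Nr4a1* (Nur77). Cells with any UMI of *Foxp3*, *Zbtb16*, *S1pr1* or *Cd79a*, which mark regulatory T cells, innate-like T cells, mature thymocytes and B cells, were left out. The rule found 1338 cells, 1.68% of the 79569 cells that passed the 2 quality filters (there were 85389 barcodes before them), and they are called *Bcl2l11*-high signaled cells below. The same rule without the *Bcl2l11* threshold held 8619 cells, called signaled cells, so the *Bcl2l11*-high cells were 15.5% of them.

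Thymocytes rearrange their receptor at the CD4+CD8+ double-positive (DP) stage and are then tested on self-peptides bound to major histocompatibility complex (MHC) molecules. Weak recognition allows survival and maturation, whereas strong recognition in the cortex or medulla of the thymus can end in clonal deletion, called negative selection, or in diversion to an agonist-selected lineage such as regulatory T cells. BIM binds and neutralizes BCL-2 family survival proteins and is a main mediator of this deletion. Nur77 and PD-1 are induced by strong TCR signals, and the NF-κB transcription factors are switched on downstream of the TCR and of TNF receptors.

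The RNA and 111 surface proteins of thymus cells had been measured in the same cells by CITE-seq, in which antibodies carry sequence tags that are counted with the transcripts. The 17 female mice were 4 to 8 weeks old and were run on 19 lanes in 3 experiments. Wild-type C57BL/6 mice (WT, 5 mice) have a diverse receptor repertoire. MHCI-/- mice lack *B2m* and so make CD4-fated cells with diverse receptors (2 mice), and MHCII-/- mice lack *H2-Ab1* and make CD8-fated cells with diverse receptors (2 mice). AND mice (2 mice) carry an MHC class II-restricted receptor transgene on a *Rag1*-/- background, and F5 mice (2 mice) carry an MHC class I-restricted transgene, driven by human CD2 sequences, also on *Rag1*-/-. OT-II (2 mice, MHC class II-restricted) and OT-I mice (2 mice, MHC class I-restricted) carry receptor transgenes as well, with no *Rag1* deletion described for them. According to the study, transgenic mice with intact *Rag* might carry an endogenous receptor beside the transgenic one. The transgenic group below pools both kinds. AND, OT-II and MHCI-/- mice are the CD4-fated group, F5, OT-I and MHCII-/- mice the CD8-fated group, and the 9 WT, MHCI-/- and MHCII-/- mice are called polyclonal. WT replicates 1 to 3 and all MHC-deficient thymi were sorted for CD5+TCRβ+ cells, whereas the other samples were not sorted.

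Lanes held 2550 to 9408 barcodes with a median of 1480.5 to 6072 RNA UMIs per cell and 7 to 172 *Bcl2l11*-high cells. Of 84372 distinct barcode sequences, 981 occurred in more than 1 lane, and 29 *Bcl2l11*-high cells had a barcode also seen in another lane. Counts were summed over the cells of a mouse, because cells of 1 mouse are not replicates, and levels are given as CPM for RNA (UMIs of a gene per 1e6 RNA UMIs) and per 10000 antibody UMIs for protein. AND replicate 1 (9 cells) and OT-II replicate 2 (7 cells) were below the minimum of 10 cells and did not enter the fits, which left 15 mice.

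The label of these cells was checked on genes that the rule did not use. A UMI of a CD3 gene, part of the TCR complex, was present in 1330 of the 1338 cells (99.4%), which held a median of 20 such UMIs. Of 110 cells with at least 2 UMIs each of the B cell genes *Cd79a* and *Cd79b*, at a median of 4377.5 RNA UMIs, 35 held a CD3 UMI (31.8%) and the median was 0. *Ikzf2* (Helios), *Gadd45b*, *Nr4a3* and *Nfkbid*, which are known from thymocytes under strong signal, were higher in polyclonal than in AND, F5 and OT-II mice. *Gadd45b*, a stress and NF-κB target, stood at 346, 522, 247, 166 and 128 CPM in WT replicates 1 to 5, at 484 and 361 in MHCI-/-, and at 115 and 94.9 in MHCII-/-. OT-I mice had 218 and 67.4 CPM. In the remaining transgenic mice it was near the floor, with 18.2 CPM in AND replicate 2, 6.95 and 3.27 in F5 and 7.51 in OT-II replicate 1. *Nr4a3*, an orphan nuclear receptor of the Nur77 family, was at 61.4 to 309 CPM in the 9 polyclonal mice, at 74.2 and 91.5 CPM in OT-I and at 1.64 to 24.4 CPM in the AND, F5 and OT-II mice. *Nfkbid* was at 130 to 454 CPM in polyclonal mice, at 140 and 111 in OT-I and at 15.6 to 54.5 in the other 4, and *Ikzf2* at 1017 to 2058, at 495 and 939, and at 247 to 464 CPM. *Lag3*, an inhibitory receptor on the same marker list, was low throughout, at 0, 5.40 and 11.3 CPM (lowest, median and highest of 15 mice). For each of these 4 genes the AND, F5 and OT-II mice lay below all others, and their cells are described by the rule alone, whereas OT-I mice overlapped polyclonal mice in *Gadd45b*, *Nr4a3* and *Nfkbid* and lay below them in *Ikzf2*.

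The cells were chosen by their own UMI counts of *Bcl2l11*, *Pdcd1* and *Nr4a1*, and these values are given as a description. Of the 1338 cells, 478 had exactly 2 *Bcl2l11* UMIs, 258 had 3, 172 had 4, 115 had 5 and 315 had 6 or more, up to 29. Just outside the threshold lay 1308 signaled cells with exactly 1 *Bcl2l11* UMI, and 5973 signaled cells had none. *Nr4a1* was found in 1059 of the *Bcl2l11*-high cells (79.1%) and *Pdcd1* in 546 (40.8%), with 267 holding both. The signaled cells without *Bcl2l11* more often held *Pdcd1* (3605 cells, 60.4%) than *Nr4a1* (2977 cells, 49.8%). *Bcl2l11* itself ranged from 199 CPM in OT-II replicate 1 to 1333 CPM in WT replicate 5, with a median of 612.

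Free RNA in droplets can place single UMIs in any cell, so the rule was also applied to quiescent DP cells, which precede selection and were taken as cells with a UMI of the DP-stage genes *Rag1* and *Arpp21* and none of *Cd69* or *Itm2a*. Of 18639 such cells, with a median of 2729 UMIs, 20 met the rule (0.107%), against 1.68% of all filtered cells. The quiescent cells had no UMI of the 4 excluded genes, whereas the 1.68% is of cells with and without them. At least 2 *Bcl2l11* UMIs were present in 2.31% of the quiescent cells and in 5.64% of all cells without the 4 genes. A *Pdcd1* or *Nr4a1* UMI was present in 2.54% and 13.4%. The quiescent cells were shallower and chosen to lack *Cd69* and *Itm2a*, so the 0.107% cannot tell how much free RNA adds. The *Bcl2l11*-high cells had a median of 5098 UMIs, close to the 5179 of the signaled cells without *Bcl2l11* and above the 3647 of all other cells.

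The first comparison asked how signaled cells with at least 2 *Bcl2l11* UMIs differ from signaled cells with none in the same mouse. It used edgeR's quasi-likelihood test with mouse as a block over 15 mice and 8334 genes, and a gene was called at an adjusted p (Benjamini-Hochberg) under 0.05. The *Bcl2l11*-high cells had higher RNA of 11 of 12 tested NF-κB factors and targets, 10 of 13 early TCR response genes, 6 of 8 TNF and IL-2 receptor genes and 4 of 5 BCL-2 family survival genes (*Bcl2* itself was lower), and lower RNA of 5 of 8 cell cycle genes and of 4 of 8 maturation genes. Across all genes 576 were higher (6.91%) and 537 lower (6.44%). The median log2 fold change of all genes was -0.01, which serves as the reference for each list below.

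**Figure D1:**
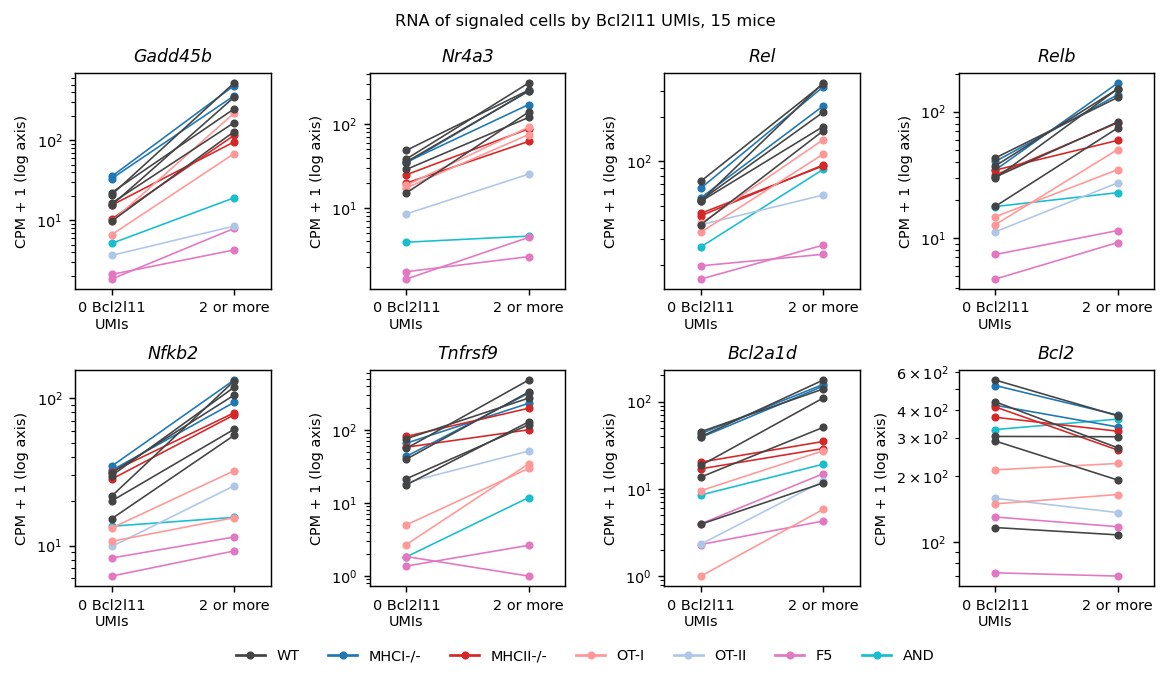
RNA level of 8 genes in signaled cells with 0 and with at least 2 *Bcl2l11* UMIs, as CPM plus 1 on a log axis, with 1 line for each of 15 mice coloured by genotype. *Gadd45b*, *Nr4a3*, *Rel*, *Relb* and *Nfkb2* rose along all 15 lines, while *Bcl2* fell along 12 of 15.

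The NF-κB list moved almost as a whole. Of its 12 tested genes 11 were higher and none lower, with a median log2 fold change of 1.26. *Rel* (c-Rel) stood at 22.6, 139 and 336 CPM (lowest, median and highest mouse) in *Bcl2l11*-high cells and at 15.1, 41.9 and 72.4 CPM in *Bcl2l11*-negative signaled cells. It was higher in 15 of 15 mice, by 1.74 ± 0.12 (log2 fold change ± SE, edgeR adjusted p = 1.99e-10), although the ranges of the 2 gates overlapped, the lowest *Bcl2l11*-high values being those of F5 mice. *Relb*, which pairs with p52 in the alternative pathway, gave 8.18, 73.2 and 167 CPM against 3.72, 28.7 and 42.0, a log2 difference of 1.72 ± 0.12. *Nfkb2*, the precursor of p52, and *Nfkb1*, the precursor of p50, were higher by 1.67 ± 0.12 and 1.35 ± 0.14, each in 15 of 15 mice. *Rela*, the main activating subunit, differed by 0.23 ± 0.08 and was the gene of the list that did not pass (adjusted p = 0.0637).

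Inhibitors of the pathway were higher together with its factors. *Nfkbia* (IκBα), which holds NF-κB in the cytoplasm, was at 86.3, 470 and 906 CPM against 61.3, 211 and 333 CPM, a log2 difference of 1.17 ± 0.12. *Nfkbid*, a nuclear IκB protein, differed by 1.70 ± 0.13, and *Tnfaip3* (A20), an enzyme that ends NF-κB signaling, by 1.63 ± 0.15. *Nfkbie*, *Nfkbib*, *Traf1* and *Birc3* were higher by 0.68 to 1.13 on the log2 scale. These genes encode 2 further inhibitors, an adaptor of TNF receptors and an inhibitor of apoptosis.

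Because members of this list moved together, the 250 bases before the start sites of 3 of them are shown, read from the RefSeq promoter table on GRCm38.p6. Capitals mark matches to the κB motif, searched on both strands in a shorter form, GGGANTTCC, and in a longer form that has 1 further T before the final CC.
*Nfkbia*, chr12:55492648-55492897, minus strand: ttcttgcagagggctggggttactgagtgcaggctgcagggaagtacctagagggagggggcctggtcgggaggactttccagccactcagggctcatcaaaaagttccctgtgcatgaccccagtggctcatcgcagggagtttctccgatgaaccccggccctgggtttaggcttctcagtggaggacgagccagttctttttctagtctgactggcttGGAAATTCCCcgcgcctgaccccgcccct
*Nfkb2*, chr19:46304487-46304736, plus strand: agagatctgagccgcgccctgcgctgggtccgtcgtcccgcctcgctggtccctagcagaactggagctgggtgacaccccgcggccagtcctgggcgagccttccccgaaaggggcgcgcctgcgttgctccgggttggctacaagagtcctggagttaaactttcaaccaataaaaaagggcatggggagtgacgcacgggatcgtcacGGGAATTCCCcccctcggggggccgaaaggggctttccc
*Rel*, chr11:23770970-23771219, minus strand: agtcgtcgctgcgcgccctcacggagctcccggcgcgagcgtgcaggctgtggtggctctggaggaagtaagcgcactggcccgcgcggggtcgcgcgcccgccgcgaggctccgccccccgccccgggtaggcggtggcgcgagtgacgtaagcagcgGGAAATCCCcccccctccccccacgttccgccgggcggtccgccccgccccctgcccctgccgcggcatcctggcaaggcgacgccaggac
The match began 29 bases before the start site in *Nfkbia*, 39 in *Nfkb2* and 91 in *Rel*, and in *Nfkb2* the shorter form matched both strands in overlapping positions. The longer form of *Nfkb2* lay in windows of its other start sites, which are not shown. Across 32851 promoter windows of 300 bases, 0.411% held the longer form and 1.68% the shorter one. Of the 16 windows of the NF-κB list, 3 held the longer and 5 the shorter form. Of the 3 windows, 2 are overlapping windows of *Nfkb2* that hold the same site, so it is counted in both. By gene, of 11 with a window, 2 held the longer form (*Nfkb2* and *Nfkbia*) and 5 the shorter one (*Bcl3*, *Nfkb2*, *Nfkbid*, *Rel* and *Tnfaip3*). *Bcl3* is on the list but was not among its tested genes. A match describes the letters of the window only.

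Genes of the early TCR response were higher except for the Egr factors. Of 13 tested genes 10 were higher and none lower, with a median of 0.56. *Nr4a3* was at 1.64, 91.5 and 309 CPM against 0.425, 18.9 and 47.8, and rose in 15 of 15 mice by 2.37 ± 0.11 (edgeR adjusted p = 2.52e-14). Its relative *Nr4a2* differed by 1.71 ± 0.23. *Dusp5* and *Dusp2*, phosphatases that switch off MAP kinases, differed by 1.65 ± 0.12 and 0.75 ± 0.07, and *Cd69*, the activation marker that retains cells in the thymus, by 1.00 ± 0.12. *Myc*, *Junb* and *Cd5* were higher by 0.81 ± 0.11, 0.55 ± 0.08 and 0.56 ± 0.08. *Egr1* was at 54.4, 156 and 213 CPM against 58.9, 172 and 276 CPM, a difference of -0.16 ± 0.11 (adjusted p = 0.432), and *Egr2* differed by -0.25 ± 0.11 (adjusted p = 0.146). The value of *Egr1* pools unlike groups, since its difference was more positive in transgenic than in polyclonal mice, by 0.86 in the interaction test below.

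The list of strong-signal and deletion-associated genes had 8 higher and 2 lower of 11 tested, with a median of 1.01, *Rel* and *Nfkbid* being on this list too. *Gadd45b* led the whole comparison, with 3.27, 128 and 522 CPM against 0.851, 9.44 and 34.6 CPM, a log2 difference of 3.74 ± 0.16 that was seen in 15 of 15 mice. *Ikzf2*, an Ikaros family factor, was at 247, 1211 and 2058 CPM against 254, 381 and 856, a difference of 1.18 ± 0.16 in 14 of 15 mice. *Xcl1*, a chemokine for cross-presenting dendritic cells, gave 0, 105 and 663 CPM against 0, 11.9 and 126, with a difference of 2.33 ± 0.36. *Gadd45g* and *Cd200*, a ligand of an inhibitory receptor, rose by 0.86 ± 0.19 and 1.01 ± 0.14. *Id3*, an inhibitor of E proteins, was lower by 0.40 on the log2 scale (-0.40 ± 0.08), and *Tox*, a factor of the CD4 lineage program, by 0.20 (-0.20 ± 0.06, adjusted p = 0.0334), although it was at 0.04 when both gates were limited to cells with an *Nr4a1* UMI. *Tnf* did not pass (0.44 ± 0.18, adjusted p = 0.123). Of the 10 increases named by rule (the largest among called genes of at least 20 CPM that moved one way in at least 80% of mice), 4 were on no list: *Ccl4*, a chemokine (2.45 ± 0.25), *Trib1*, a pseudokinase (2.18 ± 0.18), *Mir155hg*, the host transcript of miR-155 (2.15 ± 0.24), and *Tagap*, a GTPase-activating protein (2.29 ± 0.17), whose reads can be shared with the near-identical *Tagap1*.

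**Figure D2:**
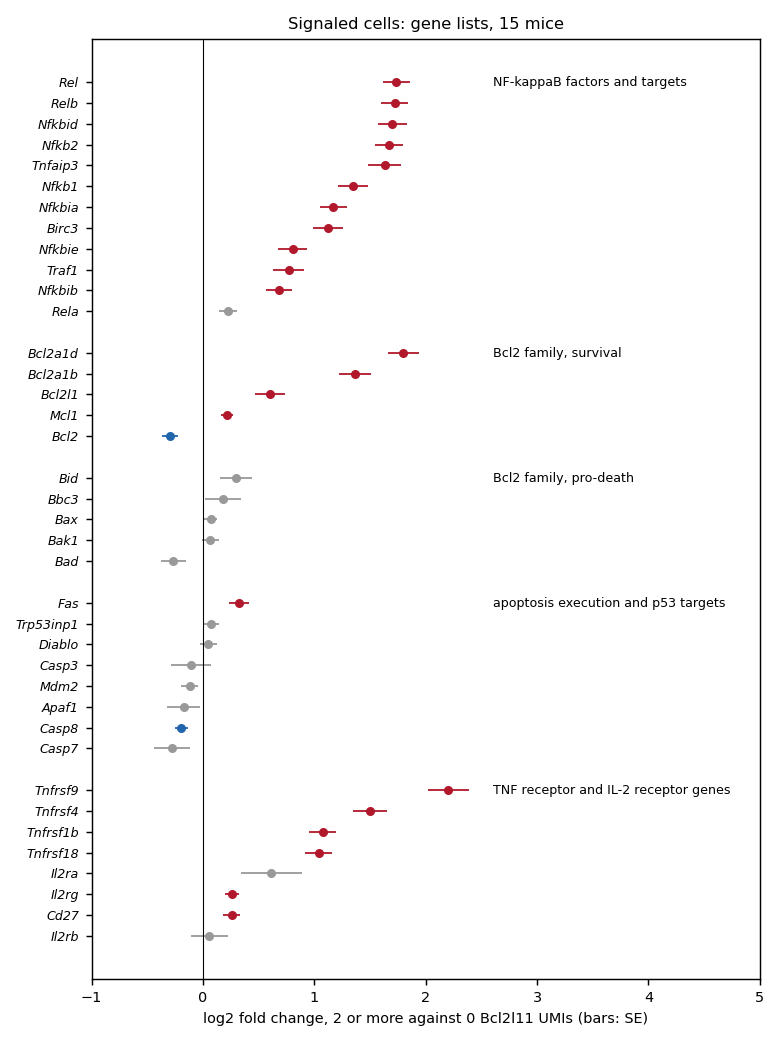
Log2 fold change with SE of each tested gene of 5 lists in *Bcl2l11*-high against *Bcl2l11*-negative signaled cells of 15 mice, with red for higher and blue for lower at an adjusted p under 0.05 and grey for genes that did not pass. The NF-κB list lies to the right of 0 with 11 of 12 genes called, while none of the 5 pro-death genes is called.

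The rest of the BCL-2 family is of interest because BIM acts by binding its survival members. Of the pro-death genes other than *Bcl2l11* 5 were tested and none passed, with a median of 0.07. *Bax*, an executor that opens the mitochondrial membrane, was at 33.7, 143 and 207 CPM in *Bcl2l11*-high cells and at 40.4, 148 and 173 CPM in negative cells, a difference of 0.07 ± 0.06. *Bak1*, the other executor, differed by 0.06 ± 0.08, and *Bbc3* (PUMA), which like BIM activates them, by 0.18 ± 0.16. Of 5 tested survival genes 4 were higher and 1 lower, with a median of 0.60. *Bcl2l1* (BCL-XL) was at 10.9, 38.8 and 84.1 CPM against 14.7, 25.5 and 62.4, higher in 13 of 15 mice by 0.60 ± 0.13 (edgeR adjusted p = 0.0025). *Bcl2a1d* and *Bcl2a1b*, which encode the NF-κB-induced survival protein A1, differed by 1.80 ± 0.14 and 1.36 ± 0.14, and their near-identical sequences mean that reads of one copy may be counted for the other. *Mcl1*, required for thymocyte survival, was higher by 0.22 ± 0.05. *Bcl2* was the exception, with 68.7, 262 and 379 CPM against 71.2, 303 and 549, and fell in 12 of 15 mice by 0.30 on the log2 scale (-0.30 ± 0.07, edgeR adjusted p = 0.00429). Its difference was more positive in transgenic than in polyclonal mice, by 0.48 in the interaction test below.

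Of 8 tested genes of the list for carrying out apoptosis, which also holds p53 targets, only *Fas*, the death receptor, was higher (0.33 ± 0.09), and only *Casp8*, the caspase recruited by it, was lower (-0.19 ± 0.06). The list had a median of -0.11.

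TNF receptor and IL-2 receptor genes gave 6 higher and none lower of 8, with a median of 0.83. *Tnfrsf9* (4-1BB) was at 0, 117 and 485 CPM against 0.372, 20.6 and 81.1 CPM, a difference of 2.20 ± 0.18 in 14 of 15 mice. *Tnfrsf4* (OX40), *Tnfrsf18* (GITR) and *Tnfrsf1b* (TNFR2) rose by 1.503 ± 0.15, 1.04 ± 0.12 and 1.07 ± 0.12, and *Cd27* by 0.26 ± 0.08. OX40, GITR and TNFR2 are costimulatory receptors known from regulatory T cell precursors. The rule set *Foxp3* to 0 UMIs in both gates, so its absence carries no information on such precursors. Of the 12 tested inhibitory receptors and brakes of TCR signaling 6 were higher, among them *Btla* (0.94 ± 0.14) and *Cd160* (0.86 ± 0.17).

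Stage markers did not point one way. *Cd24a*, high in immature cells, was at 174, 265 and 532 CPM against 98.2, 148 and 330, and rose in 15 of 15 mice by 1.00 ± 0.12. The recombination-stage genes *Rag2* (-0.67 ± 0.22), *Dntt* (-0.51 ± 0.15) and *Arpp21* (-0.55 ± 0.15) were lower, 3 of the 4 called lower among 9 tested preselection genes, and *Rag1* differed by -0.48 ± 0.17 (adjusted p = 0.062). The maturation list had 4 of 8 genes lower and 1 higher, with a median of -0.34. *Klf2*, *Itgb7* and *Il7r*, which mark maturing cells, were lower by 0.33, 0.32 and 0.81 on the log2 scale (-0.33 ± 0.08, -0.32 ± 0.10 and -0.81 ± 0.18), and *Gimap6* was higher (0.28 ± 0.07). The value of *Il7r* pools unlike groups, since its difference was more positive in transgenic than in polyclonal mice, by 1.59 in the interaction test below. *Gpr183* and *Ccr4*, receptors that guide cells to and within the medulla, were higher by 0.94 ± 0.12 and 0.45 ± 0.13, whereas *Ccr7*, the main medullary homing receptor, was lower (-0.38 ± 0.10). None of the 11 genes for coreceptors and the TCR complex was higher and 4 were lower, including *Lck*, *Lat* and *Themis* by 0.17, 0.20 and 0.28 (-0.17 ± 0.04, -0.20 ± 0.05 and -0.28 ± 0.07). *Bcl11b* (-0.50 ± 0.07), *Lef1* (-0.22 ± 0.06) and *Tox2* (-1.097 ± 0.19), T lineage and lineage choice factors, were lower as well. The difference of *Bcl11b* was more positive in transgenic than in polyclonal mice, by 0.50 in the interaction test. *Nfatc1*, a transcription factor switched on by calcineurin, was the sole gene of 6 tested in the NFAT feedback list to pass (0.82 ± 0.13). Leaving out MHCI-/- replicate 2 ended the calls of *Rag2*, *Lef1*, *Ccr4*, *Cd27* and *Tox*. The highest adjusted p with 1 mouse left out was 0.112 for *Rag2* and 0.0731 for *Cd27*, both without WT replicate 1, and 0.0658 for *Lef1* and 0.0917 for *Tox*, both without WT replicate 2.

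Cycling genes were lower, with 5 of 8 called and a median of -0.81. *Top2a* was at 41.8, 166 and 1223 CPM against 189, 429 and 1713, lower in 14 of 15 mice (-0.93 ± 0.15), and *Mki67* differed by -0.85 ± 0.15. Among the largest decreases overall were *Igfbp4* (-1.73 ± 0.27), a binding protein of insulin-like growth factors, and the mitotic gene *Nusap1* (-1.07 ± 0.17). The histone gene *Hist1h2ap* (-1.07 ± 0.25) belongs to a family of near-identical copies.

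Surface protein was measured on the same cells. Of 111 antibodies 5 were called (4.50%), 3 higher (2.70%) and 2 lower (1.80%), while DESeq2 gave 12 higher and 4 lower and a threshold of 3 *Bcl2l11* UMIs 11 higher and 4 lower. CD69 was at 11.4, 76.3 and 150 per 10000 antibody UMIs in *Bcl2l11*-high cells and at 10.1, 39.7 and 88.7 in negative signaled cells, higher in 15 of 15 mice by 0.71 ± 0.10 on the log2 scale (edgeR adjusted p = 2.26e-04). CD54 (ICAM-1), an adhesion molecule, and PD-L1, the ligand of PD-1, were higher by 0.47 ± 0.10 and 0.36 ± 0.08. Ly-6C, named after its value was seen, was lower (-0.59 ± 0.15), though not past the threshold without WT replicate 1 (adjusted p = 0.0942). PD-1 protein, whose RNA was part of the rule, was at 23.6, 29.5 and 72.4 against 26.4, 35.9 and 73.2 and did not pass (-0.15 ± 0.08, adjusted p = 0.218). CD5 protein differed by 0.27 ± 0.09 (adjusted p = 0.0796), and none of the CD4, CD8a and CD8b proteins passed. Of the features followed across all alternatives, the one without the mouse term included, 20 of 68 called genes and 0 of 5 called antibodies of this comparison were called under every one.

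RNA of other cell types was measured in the same gates. A UMI of *Cd74*, *H2-Aa* or *H2-Eb1*, MHC class II genes of antigen-presenting cells, was present in 216 *Bcl2l11*-high cells (16.1%) and in 497 negative signaled cells (8.32%). The summed level of the 3 genes was 4.81, 77.8 and 5744 CPM (lowest, median and highest of 15 mice), with *Cd74* at 3188 CPM in F5 replicate 1, 770 in OT-II replicate 1, 668 in OT-I replicate 1 and 483 in WT replicate 4. *Cd74* did not pass the test (1.60 ± 0.59, adjusted p = 0.0754). Called doublets made up 7.77% of *Bcl2l11*-high cells and 4.27% of negative signaled cells. The lists of other cell types went both ways. The regulatory T cell and precursor list had a higher median summed level in the *Bcl2l11*-high gate (354 against 217 CPM), as did the list of CD8αα intraepithelial precursors (158 against 123 CPM). Summed B cell markers were at 19.8, 146 and 493.1 CPM, against 95.4, 256 and 461 CPM in negative signaled cells of 17 mice. The γδ T cell markers were at 14.8, 156 and 1478 CPM against 93.2, 260 and 1645 CPM, and NK markers at 0, 88.9 and 1246 CPM, with *Ncr1* at 0, against 49.6, 294 and 1977 CPM. Summed myeloid and dendritic markers were at 48.1, 173 and 1613 CPM against 131, 191 and 1259 CPM. At least 2 UMIs of the B cell, myeloid and dendritic, γδ T cell and NK lists together were present in 47.5% of *Bcl2l11*-high and 58.6% of negative signaled cells. *Trdc*, a γδ receptor gene, was lower than in negative signaled cells (-0.58 ± 0.12). The difference of *Trdc* was more positive in transgenic than in polyclonal mice, by 0.83 in the interaction test below. Without the cells holding MHC class II RNA, an alternative chosen after seeing the data, the comparison gave 393 genes higher and 376 lower. When both gates were limited to cells with an *Nr4a1* UMI, also chosen after seeing the data, 374 genes were higher and 408 lower.

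Against all other cells without the 4 excluded genes, a wider reference of mixed stages, 2637 of 10230 genes were called (25.8%), 1339 higher (13.1%) and 1298 lower (12.7%). Cells with an *S1pr1* UMI, a mark of mature thymocytes, are absent from this reference. *Nr4a3* differed by 4.16 ± 0.17, *Gadd45b* by 3.84 ± 0.27 and *Ikzf2* by 1.92 ± 0.21. *Egr1*, which over all 15 mice was not higher than in negative signaled cells, was higher than in all other cells by 0.87 ± 0.11, in 14 of 15 mice. *Irf4*, a factor whose level follows TCR signal strength, was higher by 1.61 ± 0.23, and *Bcl2a1d* by 2.47 ± 0.17. *Rag1* and *Rag2* were lower (-2.30 ± 0.23 and -2.07 ± 0.20), as were the coreceptor genes *Cd8b1* (-1.504 ± 0.16), *Cd8a* (-1.16 ± 0.12) and *Cd4* (-0.94 ± 0.14). Of 111 antibodies 24 were called (21.6%), 16 higher (14.4%) and 8 lower (7.21%). That balance depends on the scaling, since library size in place of TMM gave 13 higher and 22 lower, and leaving out F5 replicate 2 gave 18 lower. CD8b was at 225, 569 and 1060.2 per 10000 antibody UMIs against 379, 922 and 1277 in other cells (-0.58 ± 0.13), CD8a differed by -0.50 ± 0.10 and CD4 by -0.34 ± 0.09. CD69 (0.97 ± 0.17), PD-L1 (0.59 ± 0.10), GITR (0.48 ± 0.13), CD5 (0.44 ± 0.15) and ICOS (0.41 ± 0.11) were higher, but the call of CD5 was lost in 11 of 15 fits that left out 1 mouse (adjusted p up to 0.0755, without MHCII-/- replicate 1). Under every alternative 17 of 17 followed genes and 0 of 12 followed antibodies were called.

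The *Bcl2l11*-high cells were not uniform. *Ccr7* splits them into cells in which a UMI of this receptor for entry to the medulla was detected (323 cells) and cells in which none was (1015 cells), and both kinds were compared in the 13 mice with at least 10 cells of each. Detection depends on depth, since the first kind had a median of 6630 UMIs and the second 4705, and 180 of the 323 cells held 1 *Ccr7* UMI. A *Ccr7* UMI was present in 24.1% of *Bcl2l11*-high cells, in 30.2% of negative signaled cells and in 2.86% of the quiescent DP cells (median 2729 UMIs). *Ccr7*-positive cells had more RNA of maturation genes, OX40 and GITR, and less RNA of 4 of 11 early TCR response genes and 2 of 4 preselection genes. Of 3852 genes 170 were higher (4.41%) and 96 lower (2.49%) by edgeR with mouse as a block, *Ccr7* itself being part of the split. Among cells of 2500 to 7500 UMIs the numbers were 165 and 88. The number lower was 286 without a filter on low counts and 175 with library size scaling, and fell to 59, 62 and 52 without MHCI-/- replicate 2, WT replicate 1 and WT replicate 4, while a threshold of 3 *Bcl2l11* UMIs gave 74 higher and 55 lower.

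Maturation genes were higher in *Ccr7*-positive cells, 5 of 7 tested, with a median of 1.07 beside -0.00455 for all genes. *Klf2*, which controls emigration, was at 85.0, 190 and 317 CPM (lowest, median and highest of 13 mice) against 28.5, 62.8 and 209, a difference of 1.32 ± 0.22 in 12 of 13 mice. *Ms4a4b* (1.37 ± 0.22), *Itgb7* (1.21 ± 0.22), *Il7r* (1.07 ± 0.22) and *Slfn2* (0.96 ± 0.13) followed. *Tesc*, a calcium-binding protein, had the largest increase named by rule (1.72 ± 0.17, 13 of 13 mice), and *Ccnd2*, cyclin D2, rose in 13 of 13 mice by 1.32 ± 0.14. *Tnfrsf4* (1.37 ± 0.26), *Tnfrsf18* (0.65 ± 0.16) and *Izumo1r* (1.23 ± 0.24), genes of regulatory T cells and their precursors, were higher, though *Tnfrsf18* did not pass without WT replicate 1 or WT replicate 4 (adjusted p up to 0.0573). So were *Cd4* (0.83 ± 0.18) and, on the CD8 side, *Runx3* (1.01 ± 0.17) and *Nkg7* (1.14 ± 0.24).

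Of 11 tested early response genes 4 were lower in *Ccr7*-positive cells and none higher, with a median of -0.40, and of 9 strong-signal genes 3 were lower and none higher. *Cd24a* was at 56.0, 159 and 307 CPM in *Ccr7*-positive and at 197, 366 and 691 CPM in *Ccr7*-negative cells, lower in 13 of 13 mice (-1.22 ± 0.12). *Nfatc1* (-1.32 ± 0.21), *Myc* (-1.19 ± 0.17), *Nr4a3* (-0.90 ± 0.21), *Cd69* (-0.83 ± 0.16) and *Dusp2* (-0.57 ± 0.15) were lower in *Ccr7*-positive cells, as were *Ikzf2* (-0.67 ± 0.11), *Nfkbid* (-0.71 ± 0.20) and *Gadd45b* (-0.57 ± 0.17). *Cxcr4*, the receptor that holds cells in the cortex, was lower too (-0.91 ± 0.26), and so were *Dntt* (-0.80 ± 0.21) and *Ccr4* (-0.85 ± 0.22). Apart from *Nfkbid*, none of the 11 tested NF-κB genes was called in either direction. Several of these calls rest on single mice. Leaving out MHCI-/- replicate 2 ended those of *Gadd45b* (adjusted p = 0.114), *Dusp2* (adjusted p = 0.0643), *Nfkbid*, *Cxcr4* and *Dntt*. Without WT replicate 1 the adjusted p of *Nfkbid* was 0.0877, without MHCII-/- replicate 2 that of *Cxcr4* was 0.106, and without WT replicate 4 that of *Dntt* was 0.0767. For *Gadd45b* the call was also lost without any 1 of MHCI-/- replicate 1, both MHCII-/- mice and WT replicates 1 to 4. Of 33 called genes of this split that were followed across the alternatives, 11 were called under every one.

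**Figure D3:**
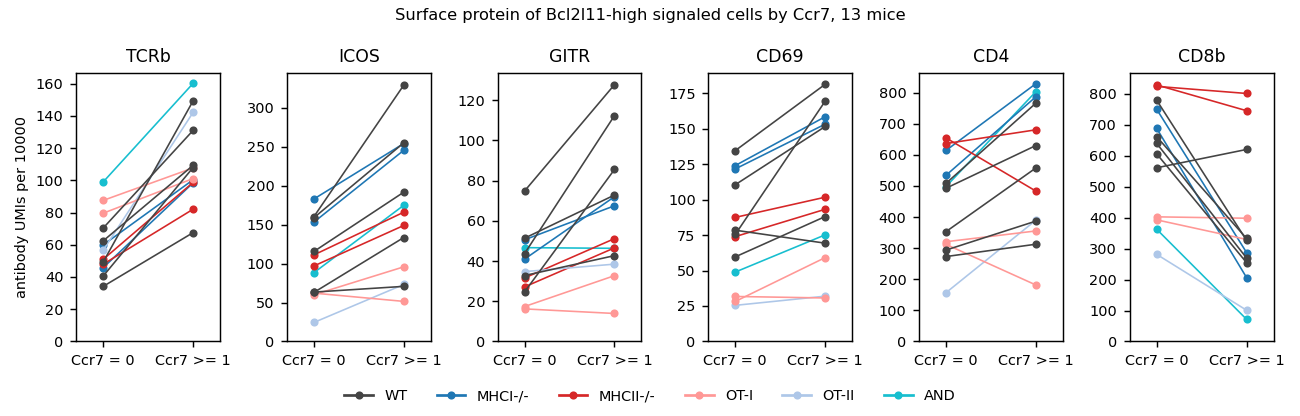
Level of 6 surface proteins per 10000 antibody UMIs in *Ccr7*-negative and *Ccr7*-positive *Bcl2l11*-high cells, with 1 line for each of 13 mice coloured by genotype. TCRβ rose along all 13 lines, and CD8b fell along 12 of 13.

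The antibodies, which the split did not use, gave 15 higher (13.8%) and 6 lower (5.50%) of 109. The balance turned with library size scaling, which gave 7 higher and 21 lower, and in polyclonal mice, with 7 higher and 14 lower. Higher calls fell to 9, 9 and 8 without AND replicate 2, OT-II replicate 1 and WT replicate 1, and lower calls were 12 without OT-II replicate 1. TCRβ chain was at 67.5, 108 and 160 per 10000 antibody UMIs in *Ccr7*-positive cells and at 34.2, 56.6 and 99.0 in *Ccr7*-negative cells, higher in 13 of 13 mice by 1.13 ± 0.11 (edgeR adjusted p = 4.2e-07). ICOS (0.90 ± 0.13), GITR (0.87 ± 0.14), CD127 (IL-7 receptor, 0.78 ± 0.15) and the integrin chain CD11a (0.53 ± 0.08) were higher. CD69 protein was higher by 0.64 ± 0.13 although its RNA was lower. CD8b fell by 0.71 (-0.71 ± 0.18). CD4 protein was higher by 0.54 ± 0.14, but did not pass without OT-II replicate 1 (0.31) or WT replicate 1 (adjusted p = 0.0895), and CD8a did not pass (-0.45 ± 0.18, adjusted p = 0.0847). CD28 (-0.45 ± 0.12) and CD38 (-0.57 ± 0.15) were lower. The CCR7 antibody itself gave 2.67, 9.84 and 32.3 against 3.43, 9.92 and 39.4 and did not differ beyond its error (0.03 ± 0.11, adjusted p = 0.896). Of 11 called antibodies followed across the alternatives, 1 was called under every one.

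The next question was how often such cells occurred in each genotype. Deeper lanes find 2 *Bcl2l11* UMIs more easily, so each cell was thinned to 2000 UMIs and the expected number of cells that meet the rule was computed, with shallower cells left out. The loss was uneven. WT replicate 5, an unsorted mouse, kept 3447 of 9646 cells and OT-II replicate 2 kept 1619 of 3178, while AND replicate 1 kept 2607 of 2674. The thinned shares are of the kept cells, and the part of this loss in them was not tested. The expected share among all cells was 1.25, 1.36, 0.760, 0.539 and 0.690% in WT replicates 1 to 5, 1.21 and 1.57% in MHCI-/-, and 0.831 and 0.839% in MHCII-/-. It was 0.0319 and 0.141% in AND, 0.261 and 0.162% in F5, 0.101 and 0.142% in OT-II, and 0.483 and 0.639% in OT-I. TCR transgenic mice had 0.245% ± 0.209 (SD, n = 8) and polyclonal mice 1.01% ± 0.351 (SD, n = 9). Their means differed by -0.76 percentage points (two-sided exact permutation over mice, p = 1.65e-04, adjusted p = 9.87e-04 over 6 comparisons of shares). Without thinning the shares ran from 0.220 to 4.15%.

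Sorting raises the share of cells that have passed selection, and 7 of the 9 polyclonal but no transgenic thymus was sorted, so the sort and the repertoire cannot be told apart in the pooled value. Among unsorted mice alone (8 transgenic and 2 WT) the difference was -0.37 percentage points (exact permutation p = 0.0444, the smallest possible being 0.0222). It rests on the thinning. With no thinning the same mice had 1.08% ± 0.749 and 1.04% ± 0.269, a difference of 0.0382 (exact permutation p = 0.978), and at 1500 and 3000 UMIs it was -0.40 in each case (exact permutation p = 0.0444 and 0.2), settings added after seeing the data. With sorted and unsorted mice together, the difference within experiments 1, 2 and 3 was -1.11, -0.94 and -0.27, lower in transgenic mice each time. The exact permutation p was 0.333, 0.0357 and 0.2, those of experiments 1 and 2 being the smallest that the designs can give. In experiments 1 and 2 all polyclonal thymi were sorted and no transgenic one was, so only experiment 3 compares unsorted thymi with each other. Expressed as a share of signaled cells, which depends less on how many unsignaled cells a thymus holds, the values were 4.27% ± 2.85 (SD, n = 8) in transgenic and 11.3% ± 2.58 (SD, n = 9) in polyclonal mice, so that the means differed by -7.05 percentage points (two-sided exact permutation p = 3.70e-04, adjusted p = 0.00111). Among unsorted mice it was -9.64 (exact permutation p = 0.0222), and -8.71 with no thinning (exact permutation p = 0.0444). OT-I replicate 2 (10.2%) overlapped the polyclonal range, whereas AND replicate 1 was lowest (0.547%).

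**Figure D4:**
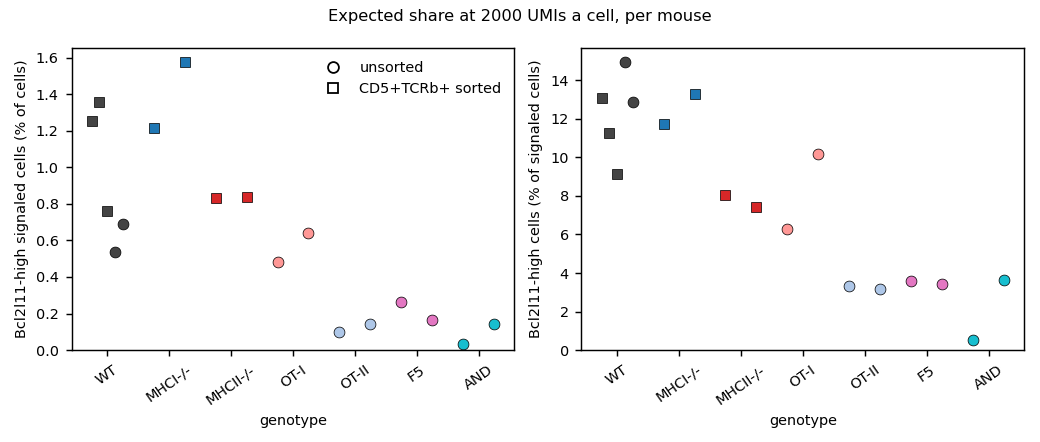
Expected share of *Bcl2l11*-high signaled cells at 2000 UMIs per cell for each of 17 mice by genotype, among all cells (left, %) and among signaled cells (right, %), with circles for unsorted and squares for sorted thymi. The 8 transgenic mice lie at 0.0319 to 0.639% of all cells and the 9 polyclonal mice at 0.539 to 1.57%.

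CD4-fated and CD8-fated mice had mean shares close to each other, 0.534% ± 0.677 and 0.536% ± 0.286 of cells (SD, n = 6 each, exact permutation p = 0.998). The spread covers opposite differences between experiments. In experiment 1 AND was below F5 by 0.23 percentage points (-0.23, 1 mouse each), and in experiment 3 OT-II was below OT-I by 0.44 (-0.44). In experiment 2, which held MHC-deficient, AND and F5 mice, the CD4-fated were above the CD8-fated by 0.37. There AND replicate 2 was at 0.141% and F5 replicate 2 at 0.162%, so the higher CD4-fated values were those of MHCI-/- mice. Experiments 2 and 3 had exact permutation p of 0.333 or more. The shares of signaled cells were 5.95% ± 5.23 and 6.49% ± 2.65 (SD, n = 6 each, exact permutation adjusted p = 0.977). The share of *Ccr7*-positive cells among *Bcl2l11*-high cells had a mean of 7.58% ± 4.90 in the CD8-fated and of 15.04% ± 12.3 in the CD4-fated group (SD, n = 6 each, exact permutation adjusted p = 0.455), and rests on 0.832 to 55.1 expected *Bcl2l11*-high cells per mouse. Its direction turned by experiment, with CD4-fated minus CD8-fated differences of 24.6 (1 mouse each), 11.8 and -7.56 percentage points in experiments 1, 2 and 3. Between transgenic and polyclonal mice the *Ccr7*-positive share was 13.7% ± 11.2 (SD, n = 8) and 9.55% ± 5.58 (SD, n = 9, exact permutation adjusted p = 0.524).

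Since the markers outside the rule were low in several transgenic mice, the difference between *Bcl2l11*-high and negative signaled cells was compared between 6 transgenic and 9 polyclonal mice by an interaction term in edgeR, a test added after seeing the data. It called 45 of 9130 genes (0.493%), 24 with a more positive difference in transgenic mice (0.263%) and 21 with a more negative one (0.230%). Of the same 9130 genes, 1403 were called within the 9 polyclonal mice and 42 within the 6 transgenic mice. These mice held 40 to 172 and 32 to 84 *Bcl2l11*-high cells each, so the 2 counts cannot be compared as sizes of effect. *Gadd45b* differed by 3.80 in transgenic and 3.71 in polyclonal mice (log2, difference 0.09 ± 0.34, adjusted p = 0.978). The transgenic value leans on the 2 OT-I mice, with 218 and 67.4 CPM against 8.75 and 5.64 in their negative signaled cells, since the other 4 transgenic mice were at 3.27 to 18.2 CPM. For *Nr4a3* the values were 2.08 and 2.42 (difference -0.34 ± 0.31, adjusted p = 0.771).

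Other genes differed between the repertoires. *Ikzf2* rose by 1.60 in polyclonal and 0.41 in transgenic mice (difference -1.18 ± 0.22, edgeR adjusted p = 0.00964). *Nfkb1* (1.67 against 0.64), *Dusp5* (1.89 against 0.97) and *Trib1* (2.49 against 0.85) had smaller rises in transgenic mice. *Il7r* differed by -1.26 in polyclonal and 0.33 in transgenic mice (difference 1.59 ± 0.27). *Bcl2* differed in the same way (-0.48 against 0.01, difference 0.48 ± 0.11, adjusted p = 0.0493). *Srgn*, a granule proteoglycan (1.19 against -0.14), *Camk2d*, a calcium-dependent kinase (1.01 against -0.48), and *Sox4*, a transcription factor (0.83 against -0.14), had the smallest p-values and were chosen after their values were seen. All but 2 polyclonal thymi were sorted and no transgenic one was, so the repertoire and the sort cannot be told apart here either.

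The main contrast of the study, CD4-fated against CD8-fated mice, was made on *Bcl2l11*-high cells of 4 and 6 mice with the family of genotypes (AND with F5, OT-II with OT-I, MHCI-/- with MHCII-/-) as a covariate. By edgeR's quasi-likelihood test none of 6639 genes passed (0%), with 222 at an unadjusted p under 0.05, and DESeq2 called 1 higher and 2 lower. The count rests on 1 mouse and on the settings, since 16 genes were higher without OT-II replicate 1, 39 higher and 12 lower without cells holding other types' markers, and 31 and 19 without a filter. *Cd8b1* came closest, with 413 ± 78.2 CPM (SD, n = 6) in the CD8-fated and 179 ± 69.98 CPM (SD, n = 4) in the CD4-fated group (-1.23 ± 0.21, edgeR adjusted p = 0.343). *Cd8a* differed by -1.09 ± 0.24 and *Cd4* by 0.99 ± 0.44, each at an adjusted p of 0.999. *Tnfrsf4* stood at 15.8 ± 15.4 CPM in the CD8-fated and 123 ± 128 CPM in the CD4-fated group, a difference of 2.62 ± 0.81 that did not pass, but was called without OT-II replicate 1 (4.19, adjusted p = 9.80e-05). Without that mouse *Cd4* (1.68, adjusted p = 0.00892), *Rel* (1.69, adjusted p = 0.00568) and *Gadd45b* (2.04, adjusted p = 0.0435) were called too. No OT-II mouse then remained, so the OT-I mice had no CD4-fated mouse of their family to be set against. The values of that fit thus rest on MHCI-/- against MHCII-/- mice and on AND replicate 2 against F5 mice. They are not independent of the comparison of MHC-deficient mice below. Of 111 antibodies 1 was called (0.901%), FceRIa, which was named after its value was seen and was lower (-1.15 ± 0.23, adjusted p = 0.0433). This call was lost with library size scaling, no doublets, 3 UMIs, no MHC class II RNA, no family term or the replicate block, and its adjusted p was up to 0.331 with 1 mouse left out. CD8a and CD8b proteins differed by -1.35 ± 0.46 and -1.29 ± 0.52 without passing, and by -0.81 and -0.66 without AND replicate 2.

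**Figure D5:**
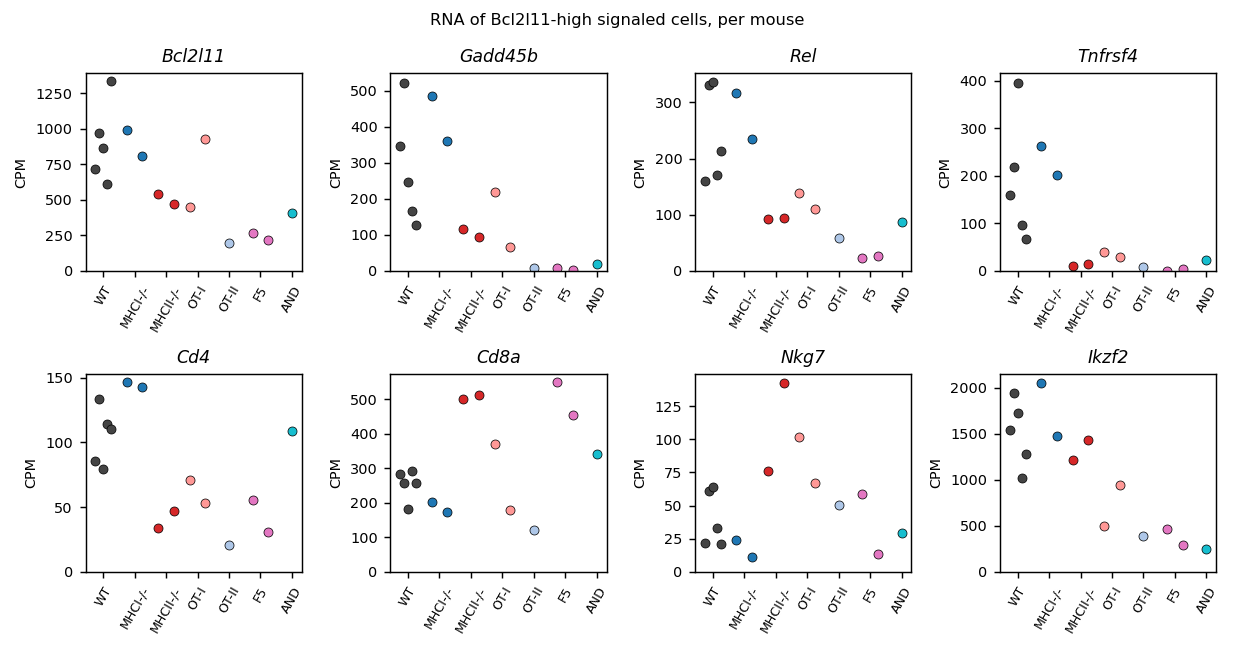
RNA level (CPM) of 8 genes in *Bcl2l11*-high cells of each of 15 mice, arranged by genotype, with each point 1 mouse. *Gadd45b* and *Rel* are high in WT and MHCI-/- mice and low in F5 mice, and *Tnfrsf4* is at 201 and 263 CPM in MHCI-/- but at 9.69 and 13.6 CPM in MHCII-/- mice.

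Within the polyclonal mice the fates could be compared without a transgene, in MHCI-/- against MHCII-/- mice (2 against 2, both sorted and in the same experiment), a comparison added after seeing the data. Their depths differed, with a median of 3142 and 4912.5 UMIs per *Bcl2l11*-high cell in MHCI-/- and of 5324 and 6362.5 in MHCII-/-, and 2 *Bcl2l11* UMIs are reached more easily in deeper cells. The part of this in the values was not tested. Of 7117 genes edgeR called 199 (2.80%), 134 higher (1.88%) and 65 lower (0.913%) in MHCI-/-. *Bcl2l11*-high cells of MHCI-/- mice, whose cells see MHC class II, had more RNA of 3 of 7 tested TNF receptor and IL-2 receptor genes and of 6 of 13 NF-κB genes. *Tnfrsf4* was at 263 and 201 CPM in MHCI-/- and at 9.69 and 13.6 in MHCII-/- (4.19 ± 0.26), and *Tnfrsf18* differed by 2.00 ± 0.19. None of the NF-κB genes was lower, and the list had a median of 1.05 beside 0.01 for all genes, the higher ones including *Rel* (1.55 ± 0.18), *Relb* (1.05 ± 0.21) and *Nfkbid* (1.41 ± 0.18). *Gadd45b* (2.04 ± 0.18), *Nr4a3* (1.52 ± 0.22), *Cd69* (1.06 ± 0.14) and *Bcl2a1d* (2.38 ± 0.22) were also higher, as were *Gpr183* (2.17 ± 0.18), *Ccr7* (1.22 ± 0.26) and *Il7r* (1.49 ± 0.27). None of the 5 tested pro-death BCL-2 genes was called.

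Cells of MHCII-/- mice had more CD8-side RNA. *Cd8a* was at 203 and 173 CPM in MHCI-/- and at 499 and 510 in MHCII-/- (-1.43 ± 0.15), *Cd8b1* differed by -1.28 ± 0.17, and *Cd4* by 1.78 ± 0.22 in the other direction. *Nkg7* (-2.97 ± 0.36), *Fcer1g* (-2.54 ± 0.55), *Xcl1* (-0.93 ± 0.24) and *Cd160* (-0.96 ± 0.25), genes of cytotoxic cells and of the precursors of CD8αα intraepithelial lymphocytes, were lower in MHCI-/-, and 3 of the 4 tested genes of that precursor list were lower. The rule genes also differed (*Bcl2l11* 0.86 ± 0.14, *Nr4a1* 0.87 ± 0.15 and *Pdcd1* -1.13 ± 0.21), and are given as a description. *Ikzf2*, at 2058 and 1481 CPM against 1211 and 1433, did not pass (0.44 ± 0.14, adjusted p = 0.0935), and neither did *Tnfrsf9* (0.77 ± 0.22, adjusted p = 0.0540).

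Of 111 antibodies 20 were called (18%), 9 higher (8.11%) and 11 lower (9.91%) in MHCI-/-. ICOS was at 192 ± 6.63 against 116 ± 13.9 per 10000 antibody UMIs (SD, n = 2 each; 0.87 ± 0.13), CD69 differed by 0.80 ± 0.14, GITR by 0.80 ± 0.14 and 4-1BB (CD137) by 0.73 ± 0.19, while CD8a (-0.64 ± 0.15) and CD28 (-0.71 ± 0.14) were lower. Named after their values were seen, Sca-1 (Ly-6A/E) was at 89.5 ± 29.1 against 22.7 ± 2.01 (2.11 ± 0.19), CD140a at 16.5 ± 0.342 against 44.5 ± 0.171 (-1.28 ± 0.15) and FceRIa at 3.61 ± 0.00611 against 13.3 ± 0.453 (-1.73 ± 0.17). The genotypes themselves were visible: *B2m* RNA was at 30.6 ± 1.01 against 683 ± 23.0 CPM, and the I-A/I-E antibody, which binds MHC class II, at 78.6 ± 0.269 against 1.63 ± 0.101. Chromosome 17, which carries *H2-Ab1*, held 21 of the 199 called genes (10.6%) and 5.30% of those tested. Chromosome 2, which carries *B2m*, held 14 (7.04%) and 7.78% of those tested, with *Bcl2l11* among the 14. Those of chromosome 17 included *Tagap* (3.87 ± 0.25) and its near-identical copy *Tagap1* (-2.77 ± 0.30), whose differences had opposite signs. Strain DNA linked to a deleted gene cannot be told apart from the fate in genes of these chromosomes, *Bcl2l11* included.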

How the data were processed

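Thymus cells of 17 mice were profiled by CITE-seq on 19 lanes. The authors deposited raw UMI counts per lane for 28692 genes and 111 antibodies, made with Cell Ranger 3.1.0 on mm10 per the labels (the file header names another release), and these deposited counts were used as they are. Matrices pooled over lanes were not used here, and the study's totalVI and Slingshot models were not run. The cells and gene lists were chosen with earlier results of these data known.

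Cells with more than 15% mitochondrial UMIs or fewer than 200 genes were left out. Both lanes of WT replicates 4 and 5 were summed as 1 mouse. Counts were summed per mouse and gate, with at least 10 cells, and tested with edgeR 4.0.16 (R 4.3.3; TMM, filterByExpr, quasi-likelihood test, Benjamini-Hochberg adjustment over all features tested). Mouse was a block in comparisons within mice, since both gates come from the same animal. Nothing in the labels says that mice of a genotype shared a litter. The test was checked on simulated counts with known changes. Shares were compared by exact permutation over mice, two-sided, on cells thinned to 2000 UMIs, and intervals of any single share would cover counting error only. Doublets were called from simulated doublets with 30 neighbours at 0.8% per 1000 barcodes, and were kept, with their removal as an alternative. Genes were named from the lists and as the 10 largest called changes in each direction with at least 20 CPM in the higher gate and 1 direction in at least 80% of mice. Antibodies were named from the lists or when called at a mean of at least 20 per 10000. Alternatives were DESeq2 1.42.0, no filter on low counts, library size scaling, a window of 2500 to 7500 UMIs, protein filters (1000 to 10000 antibody UMIs and 70 proteins), a threshold of 3 *Bcl2l11* UMIs, removal of cells with other cell types' markers, fits without the block, thinning to 1500 or 3000 UMIs and leaving out each mouse. Removal of cells with MHC class II RNA, *Nr4a1* in both gates, polyclonal mice only, the comparison of MHCI-/- with MHCII-/- mice, the interaction of repertoire and gate, and unsorted mice at other thinning depths were chosen after seeing the data. Python 3.11.15 with scipy 1.17.1 was used for the rest. Promoters came from RefSeq. A few marker genes and 1 antibody are not reported here.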

Additional observations from a re-analysis of the deposited data

Results flagged for a closer look

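Of 48 groups of 4 to 10 mice tested for a sample far from the others, 3 had one, and chance gives about 1 in 20. In *Bcl2l11*-high cells of CD8-fated mice, OT-I replicate 2 had 284 CPM of *Runx3*, a factor of the CD8 lineage, where the group's median was 112. The same mouse had 414 CPM of *Gata3*, a factor of the CD4 lineage, against a median of 159. Among CD4-fated mice AND replicate 2 had 18.4 FceRIa per 10000 antibody UMIs against a median of 3.61, and FceRIa was the single antibody that edgeR called in the comparison of 4 CD4-fated with 6 CD8-fated mice. The lane of AND replicate 2 had the lowest median of antibody UMIs per cell, 969, and the next lowest lane had 2210. The part of this in its antibody values was not tested.

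The difference between *Bcl2l11*-high and negative signaled cells was not the same in transgenic and polyclonal mice for 10 flagged features, most of them given above. They come from the interaction test in edgeR (transgenic minus polyclonal, log2). Of its 45 called genes only those on the lists or named in the text were flagged, and 1 antibody was called. The difference was more negative in transgenic mice for *Trib1* (-1.64), *Ikzf2* (-1.18), *Nfkb1* (-1.03) and *Dusp5* (-0.92). It was more positive for *Bcl2* (0.48), *Bcl11b* (0.50), *Trdc* (0.83), *Egr1* (0.86) and *Il7r* (1.59), and for the γδ TCR antibody (0.61). The sort and the repertoire cannot be told apart in these values.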

How the results depend on the processing

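Counts of called features fell when the mouse term was dropped. With no replicate block the comparison with *Bcl2l11*-negative signaled cells gave 74 genes higher and 3 lower, and 0 and 0 antibodies. That with all other cells gave 589 and 376 genes and 0 and 1 antibodies, and the *Ccr7* split 30 and 12 genes and 1 and 0 antibodies. For CD4-fated against CD8-fated mice, where a shared number is no pairing by animal, the replicate block left 0 antibodies lower.

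For *Bcl2l11*-high against negative signaled cells, genes called higher were 374 with *Nr4a1* in both gates, and genes called lower were 1303 without a filter and 835 in polyclonal mice. Antibodies higher were 12 with DESeq2, 11 at a threshold of 3 UMIs, 11 without MHC class II RNA and 7 in polyclonal mice. Antibodies lower were 4, 7, 1, 5, 4 and 5 with DESeq2, library size, no doublets, protein filters, 3 UMIs and polyclonal mice. Against all other cells genes higher were 838 in the UMI window, antibodies higher 10 without other types' markers, and antibodies lower 22, 4, 5, 5 and 21 with library size, the window, no doublets, 3 UMIs and no MHC class II RNA. In the *Ccr7* split genes higher were 74 at 3 UMIs, and genes lower 286, 175, 55 and 180 with no filter, library size, 3 UMIs and polyclonal mice. Antibodies higher were 7, 9, 9, 6, 8 and 7 with library size, the window, no doublets, 3 UMIs, no MHC class II RNA and polyclonal mice. Antibodies lower were 12, 12, 21, 15, 11, 12 and 14 with DESeq2, no filter, library size, no doublets, protein filters, no MHC class II RNA and polyclonal mice.

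Between the fates genes higher were 1, 31, 39 and 134 with DESeq2, no filter, no other types' markers and polyclonal mice, and genes lower 2, 19, 1, 12 and 65 with DESeq2, no filter, 3 UMIs, no other types' markers and polyclonal mice. Antibodies higher were 2, 2 and 9 with DESeq2, no other types' markers and polyclonal mice. Antibodies lower were 4, 2, 4 and 11 with DESeq2, the window, no other types' markers and polyclonal mice, and 0 with library size, no doublets, 3 UMIs, no MHC class II RNA or no family term. The cause was not tested.

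Differences that did not pass turned sign in places. The CCR7 antibody in the *Ccr7* split was at -0.102, -0.176, -0.0476, -0.0668, -0.0665, -0.0772 and -0.0783 with no filter, library size, no doublets, protein filters, 3 UMIs, no MHC class II RNA and polyclonal mice, and at -0.112 to 0.0909 leaving out 1 mouse at a time. *Bax* was at -0.0281, -0.0934, -0.0156 and -0.112 with no filter, the window, 3 UMIs and no other types' markers, *Bak1* at -0.0273 with no filter and *Bbc3* at -0.0519 in the window. With *Nr4a1* in both gates PD-1 protein was at 0.15 and *Tox*, which was called, at 0.0387. The *Ccr7*-positive share differed by -0.84 percentage points between transgenic and polyclonal unsorted mice (-1.88 at 3000 UMIs), and the share of cells by 0.0176 between the fates at 3 UMIs. The share of cells in transgenic against polyclonal mice, which had passed, turned to 0.0382 in unsorted mice without thinning, and was -0.397 there at 3000 UMIs, without passing.

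Leaving out 1 mouse at a time gave 432 to 609 genes higher and 428 to 599 lower against negative signaled cells, with 3 to 6 and 1 to 5 antibodies. Against all other cells it gave 1064 to 1415 and 1086 to 1438 genes, with 11 to 17 and 4 to 18 antibodies (18 without F5 replicate 2). The *Ccr7* split gave 115 to 210 and 52 to 116 genes, with 59, 62 and 52 lower without MHCI-/- replicate 2, WT replicate 1 and WT replicate 4, and 8 to 19 and 4 to 12 antibodies. The fates gave 0 to 16 and 0 to 0 genes (16 without OT-II replicate 1) and 0 to 2 antibodies in each direction. The share of cells differed by -0.820 to -0.690 percentage points between transgenic and polyclonal mice and by -0.210 to 0.0984 between the fates, that of signaled cells by -7.89 to -6.52 and -2.01 to 0.544, and the *Ccr7*-positive share by 1.25 to 5.86 and 3.73 to 10.2. Depth limits genes near 1 UMI per cell and the 7 to 54 cells of most transgenic mice.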
